A study of Mus musculus with 6 samples.

Results

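The genes described here mark the cells that a CD45 sort is meant to remove. They are 39 leukocyte markers named by symbol, out of 23940 gene symbols in the table, and all 39 were found in it. By leukocyte class they comprise 7 pan-leukocyte genes, 13 genes of macrophages and other myeloid cells, 4 genes of MHC class II, 9 genes of T and NK cells, 3 of B cells and 3 of neutrophils. RNA was measured in CD45-negative cells sorted out of 6 YUMM1.7 tumours, which had grown in C57BL/6 mice. YUMM1.7 is a mouse melanoma line with mutant Braf and no Cdkn2a, which all tumours of the study share. The pre-treatment group held 3 tumours with no MAPK inhibitor. The on-BRAFi group held 3 residual tumours taken while on a BRAF inhibitor. For the compound, dose, treatment time and age of the mice, the sources used here state nothing. The tumours are numbered in the labels without saying whether each had its own mouse, so a p-value reflects tumour-to-tumour spread, which may be partly technical.

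CD45, the product of Ptprc, is a phosphatase on the surface of nearly all nucleated blood cells, and antibodies to it separate leukocytes from tumour, stromal and vessel cells. Macrophages are a common leukocyte of mouse melanoma; they carry the lipid and immune-complex receptors of the myeloid lineage and secrete the complement protein C1q. Dendritic cells, macrophages and B cells present peptides to CD4 T cells on MHC class II, whose genes follow the coactivator CIITA. Several markers are not confined to leukocytes, since interferon-gamma can induce class II genes in tumour and vessel cells, and CD68 is a lysosomal protein found at low levels in many cells.

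The deposited values were FPKM, fragment numbers divided by transcript length and by library size, which allow levels of different genes to be set side by side. The total FPKM per library ran from 414834 to 921297, and 11074 to 11740 genes reached 1 FPKM. No read counts were given, so the depth behind a value is unknown and a value of 0 is reported only as listed at 0. Of the melanocyte markers, Dct, Tyrp1 and Mlana were listed at 0 in every library and Sox10 did not exceed 0.114 FPKM. All of these are defining pigment-cell markers. Of this list 7 markers were in the data and 2 were tested: Tyr, which makes melanin, lay between 3.02 and 5.99 FPKM and did not pass, and the melanocyte factor Mitf rose from 5.77 ± 1.40 to 21.5 ± 2.16 FPKM (limma, adjusted p = 0.00302). Means carry the SD (n = 3 libraries). The test was limma on log2(FPKM + 0.1), with p-values adjusted by the Benjamini-Hochberg method over all 12075 genes with a mean of at least 1 FPKM. Log2 fold changes are on-BRAFi over pre-treatment; the added 0.1 shrinks those of low genes.

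Promoters of 6 members are shown: Ptprc, the gene of the sorted antigen, and members of 2 groups with different patterns across the libraries. These groups are the C1q and Fc receptor genes, and the class II genes. Each run is the 250 bases before the gene start in RefSeq's GRCm38.p6 table, 5′ to 3′ on the gene's strand; the coordinates are of that build and not of mm9, the build named in the processing notes. Capitals mark AGGAAGT, an ETS core bound by the myeloid factor PU.1, or CTGATTGG, the core of the Y box of class II promoters, on either strand. The motifs were chosen for this description after the values were known, and the motifs do not overlap each other. Ptprc lies at chr1:138175306-138175555 on the minus strand, C1qb at chr4:136886201-136886450 minus, C1qc at chr4:136892915-136893164 minus, Fcer1g at chr1:171234350-171234599 minus, H2-Aa at chr17:34287824-34288073 minus and H2-Eb1 at chr17:34305617-34305866 plus.
Ptprc: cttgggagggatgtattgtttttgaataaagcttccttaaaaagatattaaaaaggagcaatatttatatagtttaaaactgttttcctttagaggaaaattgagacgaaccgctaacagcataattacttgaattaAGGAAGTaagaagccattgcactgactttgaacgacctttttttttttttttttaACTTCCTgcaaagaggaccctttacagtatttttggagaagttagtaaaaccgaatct
C1qb: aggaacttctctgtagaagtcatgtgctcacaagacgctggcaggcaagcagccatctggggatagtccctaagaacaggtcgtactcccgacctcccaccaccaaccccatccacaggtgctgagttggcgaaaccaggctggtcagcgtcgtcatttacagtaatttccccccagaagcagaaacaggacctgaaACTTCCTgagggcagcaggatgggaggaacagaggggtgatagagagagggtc
C1qc: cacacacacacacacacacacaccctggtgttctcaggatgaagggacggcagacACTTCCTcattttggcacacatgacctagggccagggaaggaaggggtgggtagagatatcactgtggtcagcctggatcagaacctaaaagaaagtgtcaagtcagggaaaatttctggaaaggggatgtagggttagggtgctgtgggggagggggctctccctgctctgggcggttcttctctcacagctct
Fcer1g: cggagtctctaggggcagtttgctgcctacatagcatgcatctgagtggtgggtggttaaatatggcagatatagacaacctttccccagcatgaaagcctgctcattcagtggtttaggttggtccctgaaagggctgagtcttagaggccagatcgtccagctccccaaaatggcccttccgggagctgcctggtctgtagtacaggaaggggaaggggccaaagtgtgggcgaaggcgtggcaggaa
H2-Aa: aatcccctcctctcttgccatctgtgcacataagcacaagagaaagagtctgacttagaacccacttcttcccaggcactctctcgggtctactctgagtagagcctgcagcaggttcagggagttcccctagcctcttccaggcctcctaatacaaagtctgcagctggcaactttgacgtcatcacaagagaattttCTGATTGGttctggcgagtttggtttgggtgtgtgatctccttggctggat
H2-Eb1: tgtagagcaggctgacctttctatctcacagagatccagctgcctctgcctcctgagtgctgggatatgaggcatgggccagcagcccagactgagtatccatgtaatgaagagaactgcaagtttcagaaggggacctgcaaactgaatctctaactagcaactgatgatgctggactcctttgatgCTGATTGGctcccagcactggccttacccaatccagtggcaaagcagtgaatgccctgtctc
The table held a promoter for 28 of the 39 members. The letters AGGAAGT were present in 11 of these 28 genes and in 7.69% of all 32851 promoters of the same length. A gene was counted if any of its listed starts held the letters, whereas the percentage is of promoters. The 11 were C1qb, C1qc, Cd3d, Cd3e, Cd79a, Fcgr1, Lck, Lyz2, Mrc1, Ptprc and S100a8, so they were not confined to myeloid genes. CTGATTGG was present in 2 of the 28, H2-Aa and H2-Eb1, and in 3.83% of all promoters. The Y box letters began 51 bases before the start of H2-Aa and 62 bases before that of H2-Eb1. Fcer1g held neither motif in this window. Of Ptprc, which has 2 starts in the table, the promoter of the upstream start is shown.

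Leukocyte transcripts were low in both groups. The summed FPKM of the 39 members was 66.4, 73.4 and 99.8 in the pre-treatment libraries and 77.8, 45.9 and 55.3 on BRAFi. As a share of the total FPKM of a library, this was 0.0072%, 0.012% and 0.0178% before treatment. On BRAFi the shares were 0.0176%, 0.00827% and 0.0133%. The mean share was 0.0123% before treatment and 0.0131% on BRAFi, so it was not lower on BRAFi. For scale, the summed FPKM of 7 fibroblast markers was between 1120 and 9790. Of the 39 members, 3 were listed at 0 in every library, 13 never reached 1 FPKM and 4 had a mean of at least 5 FPKM. Between 18 and 24 members reached 1 FPKM in a pre-treatment library and between 8 and 16 in an on-BRAFi library. Of all genes 11560, 11239 and 11074 did so before treatment and 11586, 11544 and 11740 on BRAFi. The number of members listed at 0 was 4 to 7 before treatment and 9 to 14 on BRAFi. Zeros in each library were not counted over all genes, so these ranges have no background.

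None of the 20 members with a mean of at least 1 FPKM passed limma's test at an adjusted p of 0.05 in either direction. Over all 12075 genes 10.3% fell and 8.76% rose. At an unadjusted p under 0.05 there were 4 of the 20 members, all lower on BRAFi and all myeloid (C1qb, C1qc, Aif1 and Fcer1g), against 17.6% of all tested genes in that direction. In that order their means were 2.873, 2.665, 2.9 and 3.435 FPKM before treatment and 0.821, 0.476, 0.590 and 0.646 FPKM on BRAFi. They passed the filter on the mean of 6 libraries only through the pre-treatment group. A gene that low on BRAFi is tested only if high before treatment, which favours this direction. The median log2 fold change of the 20 was -0.49, and that of all tested genes was -0.01. In 11 of the 36 members above 0 in some library, all pre-treatment values lay above all on-BRAFi values, and in 1 the reverse held; over all 18060 such genes the shares were 14.4% and 18.3%. Fewer leukocytes in the sorted fraction and less of these RNAs per cell cannot be told apart in bulk samples.

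**Figure D1:**
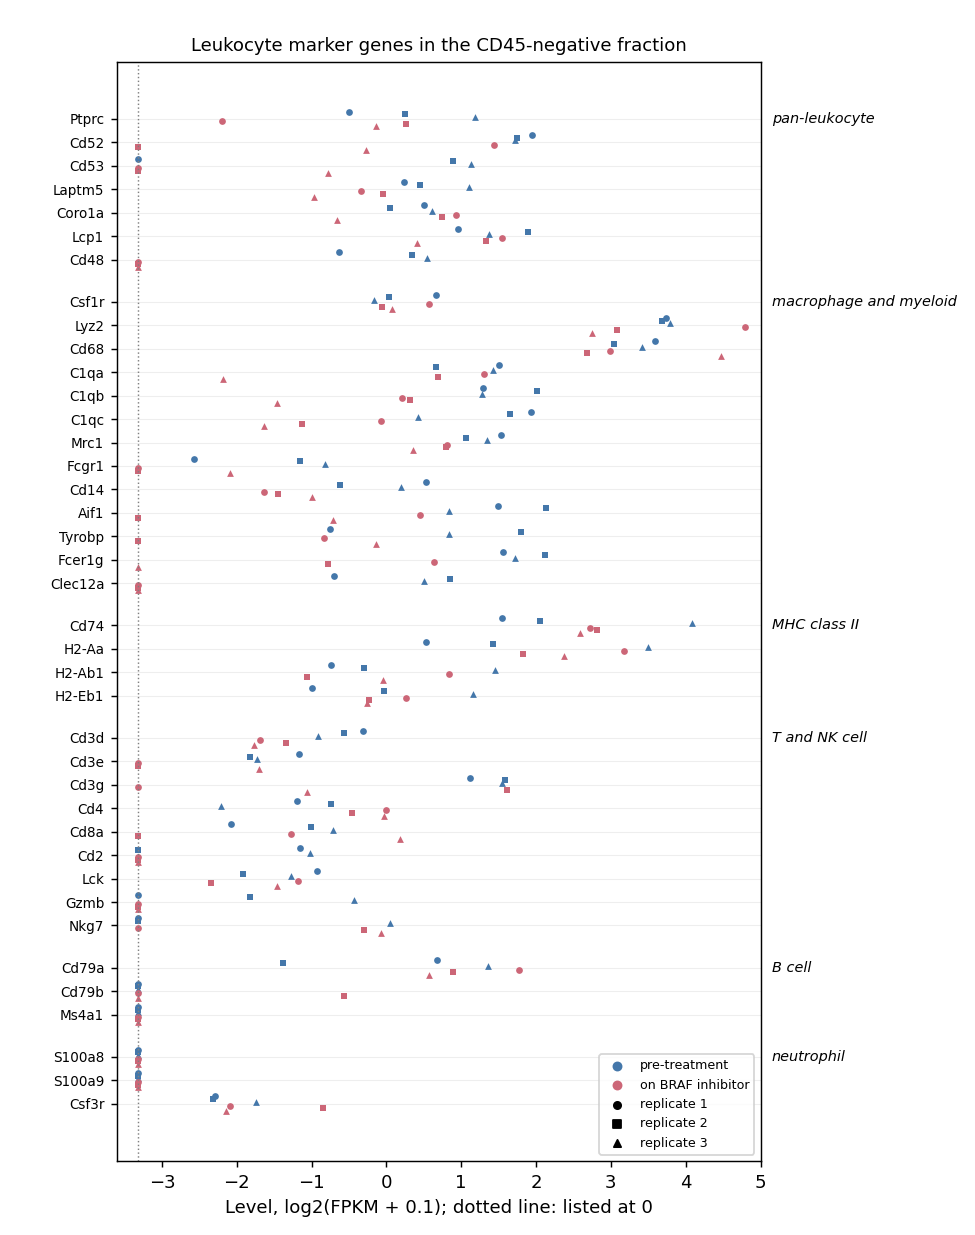
Level of each of the 39 leukocyte genes in each library, as log2(FPKM + 0.1), by class; colours give the group, symbols the replicate, and the dotted line marks values listed at 0. In 11 members all pre-treatment points lie to the right of all on-BRAFi points, and in Cd4 the reverse.

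Ptprc, the gene of the sorted antigen, was detected in every library. It was at 0.609, 1.09 and 2.18 FPKM before treatment and at 0.118, 1.10 and 0.809 FPKM on BRAFi. The groups overlapped, and the highest value was that of pre-treatment replicate 3. Within a library Ptprc ranked between the 38.7 and 60.7 percentile of all 23940 genes, listed zeros included. Its mean of 0.98 FPKM over the 6 libraries was just under the filter; without a filter limma gave a 95% interval of the log2 fold change from -2.97 to 0.96 around -1.0 (adjusted p = 0.490).

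The other pan-leukocyte genes did not follow a single pattern. Cd48, an adhesion protein of the CD2 family, was at 0.543, 1.17 and 1.36 FPKM before treatment and was listed at 0 in all 3 on-BRAFi libraries. It was below the filter. When all genes above 0 were tested it passed (limma, adjusted p = 0.00794), where 6.17% of genes fell. It entered that test only through its pre-treatment values, and its on-BRAFi values had no spread. Cd52, a small glycopeptide of lymphocytes and monocytes, was at 3.76, 3.25 and 3.18 FPKM before treatment and at 2.62, 0 and 0.731 FPKM on BRAFi. Its groups did not overlap, but the treated libraries were far apart (log2 fold change -2.52 ± 1.12 SE; limma, adjusted p = 0.166). Laptm5, a lysosomal membrane protein of blood cells, was at 1.08, 1.27 and 2.05 FPKM and then at 0.693, 0.865 and 0.410 FPKM. The groups were again apart, with a mean 2.24-fold lower on BRAFi (limma, adjusted p = 0.226). Cd53, a tetraspanin of leukocytes, was listed at 0 in pre-treatment replicate 1 and in on-BRAFi replicates 1 and 2, and reached 2.09 FPKM in pre-treatment replicate 3.

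Coro1a and Lcp1, which encode the actin regulators coronin 1A and L-plastin, were at similar levels in both groups. Coro1a was at 1.23 ± 0.260 FPKM before treatment and 1.30 ± 0.678 FPKM on BRAFi, and Lcp1 at 2.64 ± 0.894 and 2.15 ± 0.826 FPKM. The 95% intervals of their log2 fold changes ran from -1.40 to 1.30 and from -1.32 to 0.70, so changes of either sign within them were not detectable. Bola2, whose exons overlap those of Coro1a on the other strand in GENCODE M21, was at 66.2 FPKM before treatment and 17.6 FPKM on BRAFi. The libraries did not mark strand, so reads of this pair cannot be told apart where the exons overlap. The same limit holds for Csf1r, Lcp1, Cd3e and Cd52, the last with Crybg2. In all, 5 members had a gene on the opposite strand over their exons. The summed FPKM of the 7 pan-leukocyte genes was 9.16, 13.1 and 14.8 before treatment and 8.04, 5.97 and 4.19 on BRAFi. These did not overlap on the scale of the deposited FPKM only. Pre-treatment replicate 1, with the lowest pre-treatment sum, had a total of 921297 FPKM, against 414834 to 554684 on BRAFi.

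The mean was lower on BRAFi in 26 of the 36 members above 0, against 46.8% of all such genes. Of the myeloid genes, 11 of 13 had a lower mean on BRAFi. In 7 of the 13 all pre-treatment values lay above all on-BRAFi values, against 14.4% of all genes above 0. The lowest adjusted p-values among the tested myeloid genes were those of C1qc, C1qb and Fcer1g. None of them passed in the reported fit, and each passed under some of the alternatives given below. C1q is the recognition protein of the classical complement pathway, built from A, B and C chains that are made mainly by macrophages. C1qc was at 3.71, 3.05 and 1.24 FPKM before treatment and at 0.849, 0.357 and 0.222 FPKM on BRAFi. Every treated library was below every pre-treatment one, a 5.60-fold lower mean, with a log2 fold change of -2.28 ± 0.66 SE (limma, adjusted p = 0.0554). C1qb was at 2.35, 3.95 and 2.32 FPKM and then at 1.06, 1.14 and 0.263 FPKM. It too was lower in all 3 treated libraries (3.50-fold; limma, adjusted p = 0.0738). C1qa was at 2.73, 1.48 and 2.58 FPKM before treatment and at 2.38, 1.51 and 0.120 FPKM on BRAFi. Here the groups overlapped, and on-BRAFi replicate 3 was the lowest library for all 3 chains (limma, adjusted p = 0.380 for C1qa). Summed over the chains, the level was 7.80 ± 1.45 FPKM before treatment and 2.63 ± 1.87 FPKM on BRAFi.

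Fcer1g, the common gamma chain through which Fc receptors signal, was at 2.85, 4.26 and 3.20 FPKM before treatment and at 1.46, 0.481 and 0 FPKM on BRAFi. All treated libraries were lower. With 1 of them listed at 0, the fitted change depended on the pseudocount: the log2 fold change was -2.96 ± 0.98 SE with 0.1 (limma, adjusted p = 0.0803) and -1.52 with 1 (limma, adjusted p = 0.0347, over a range of 0.0347 to 0.208 in all alternatives). Tyrobp, the adaptor DAP12 of other activating myeloid receptors, was at 0.491, 3.38 and 1.68 FPKM and then at 0.462, 0 and 0.809 FPKM, with overlap between the groups. Aif1, the calcium-binding macrophage protein IBA1, was at 2.72, 4.30 and 1.68 FPKM before treatment and at 1.26, 0 and 0.510 FPKM on BRAFi. These did not overlap (limma, adjusted p = 0.110).

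Among 4 further receptors of myeloid cells, the groups did not overlap in Clec12a, Mrc1 and Cd14, and Fcgr1 was low throughout. Over all genes above 0, 14.4% had all pre-treatment values above all on-BRAFi values. Clec12a, an inhibitory C-type lectin, was at 0.515, 1.7 and 1.32 FPKM before treatment and listed at 0 in all 3 on-BRAFi libraries. It was not in the filtered test and passed without the filter (limma, adjusted p = 0.0104), where 6.17% of all genes fell. Cd48 and Clec12a were the members above 0 in all pre-treatment libraries and listed at 0 in all on-BRAFi libraries. Both entered the unfiltered test only through their pre-treatment values, and their on-BRAFi values had no spread. Mrc1, the mannose receptor CD206 of tissue macrophages, was at 2.80, 1.99 and 2.45 FPKM and then at 1.66, 1.63 and 1.18 FPKM. The groups were apart by a small margin, with a 1.62-fold lower mean (limma, adjusted p = 0.207). Cd14, a co-receptor for lipopolysaccharide, was at 0.983 ± 0.404 and 0.297 ± 0.0948 FPKM, also without overlap, and did not pass without the filter (limma, adjusted p = 0.124). Fcgr1, the high-affinity IgG receptor, did not exceed 0.466 FPKM anywhere.

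**Figure D2:**
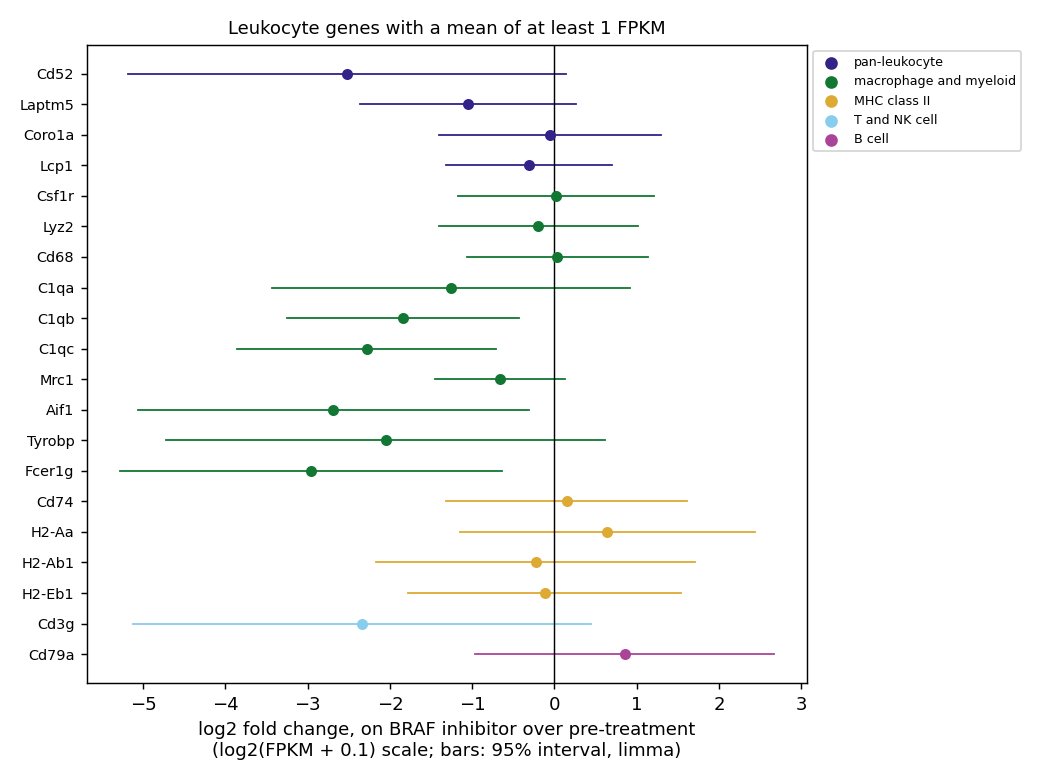
Log2 fold change of the 20 members with a mean of at least 1 FPKM, on the log2(FPKM + 0.1) scale, with 95% intervals from limma; colours give the class. The intervals of C1qb, C1qc, Aif1 and Fcer1g lie below 0, and those of the class II genes span it.

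Not all macrophage genes were lower. Csf1r, the receptor for the growth factor CSF1 on which most macrophages depend, was at 1.49, 0.922 and 0.794 FPKM before treatment and at 1.38, 0.862 and 0.958 FPKM on BRAFi. The values of the groups interleaved, and the 95% interval of the log2 fold change ran from -1.17 to 1.21. Csf1r exons overlap those of Hmgxb3 on the other strand in GENCODE M21, a gene at 3.06 FPKM before treatment and 2.52 FPKM on BRAFi. Lyz2, lysozyme M, was the most abundant member. It was at 13.2, 12.8 and 13.8 FPKM before treatment and at 27.7, 8.35 and 6.63 FPKM on BRAFi. The treated libraries lay on both sides of the narrow pre-treatment range (95% interval of the log2 fold change from -1.40 to 1.01). Cd68 was at 11.9, 8.10 and 10.6 FPKM and then at 7.86, 6.34 and 22.0 FPKM. Its highest library was on-BRAFi replicate 3, in which the C1q chains, Mrc1 and Fcer1g were at their lowest.

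Lyz2 and Cd68 made up 54.4%, 44.6% and 56.5% of the summed FPKM of the 13 myeloid genes before treatment and 76.8%, 70.2% and 86.1% on BRAFi. The 13 genes summed to 45.4 ± 1.98 FPKM before treatment and 33.5 ± 12.7 FPKM on BRAFi, and on-BRAFi replicate 1, at 46.3, was within the pre-treatment range. Without Lyz2 and Cd68, a sum chosen after the values were seen, the other 11 genes came to 21.1, 25.9 and 18.8 FPKM before treatment and to 10.7, 6.24 and 4.60 FPKM on BRAFi. These sums did not overlap on the scale of the deposited FPKM. They were not rescaled to the total FPKM, which was 921297 in pre-treatment replicate 1 and 442915 in on-BRAFi replicate 1. The separation is therefore that of the deposited scale only.

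**Figure D3:**
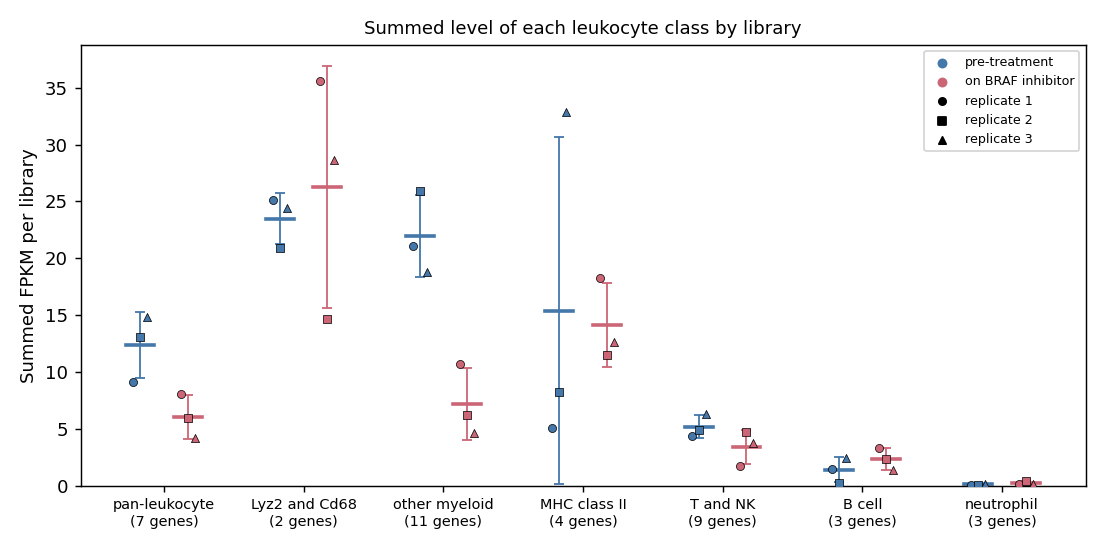
Summed FPKM of each leukocyte class in each library, with the myeloid genes split into Lyz2 with Cd68 and the other 11; bars give the mean and SD over 3 libraries and symbols the replicate. On the scale of the deposited FPKM, the pan-leukocyte sums and those of the 11 myeloid genes do not overlap between groups. The sums are not rescaled to the total FPKM of a library. Pre-treatment replicate 3 stands out for class II at 32.9 FPKM.

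The MHC class II genes were highest in a single tumour. Cd74, the invariant chain that escorts class II molecules to the endosome, was at 2.81, 4.06 and 16.9 FPKM before treatment and at 6.51, 6.93 and 5.93 FPKM on BRAFi. Pre-treatment replicate 3 was far above the rest, the other 2 pre-treatment libraries were the lowest, and the treated libraries lay between. H2-Aa, the alpha chain of I-A, had the same extremes, at 1.35, 2.58 and 11.2 FPKM and then at 8.97, 3.44 and 5.08 FPKM. H2-Ab1, the I-A beta chain, was at 0.496, 0.712 and 2.63 FPKM and then at 1.68, 0.378 and 0.867 FPKM. H2-Eb1, the I-E beta chain, was at 0.402, 0.874 and 2.14 FPKM and then at 1.10, 0.754 and 0.733 FPKM. All 4 genes were highest in pre-treatment replicate 3. Their 95% intervals spanned 0, for Cd74 from -1.32 to 1.62 and for H2-Aa from -1.15 to 2.44 on the log2 scale, and the lowest limma adjusted p of the 4 was 0.582, for H2-Aa. Without pre-treatment replicate 3 the log2 fold changes of Cd74 and H2-Aa were 0.91 and 1.48, and neither passed (limma, adjusted p = 0.0780 and 0.107).

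Cd74 and H2-Aa together held between 80.7% and 90.2% of the class II sum in every library. The class II share of the 39-gene sum was 7.64%, 11.2% and 32.9% before treatment and 23.5%, 25.1% and 22.8% on BRAFi. Ciita, which encodes the class II coactivator and was picked out after its values were seen, was at 0.280, 0.0422 and 0.164 FPKM before treatment and at 0.540, 0.477 and 0.268 FPKM on BRAFi. The promoters of H2-Aa and H2-Eb1 shown above are those with the Y box letters.

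**Figure D4:**
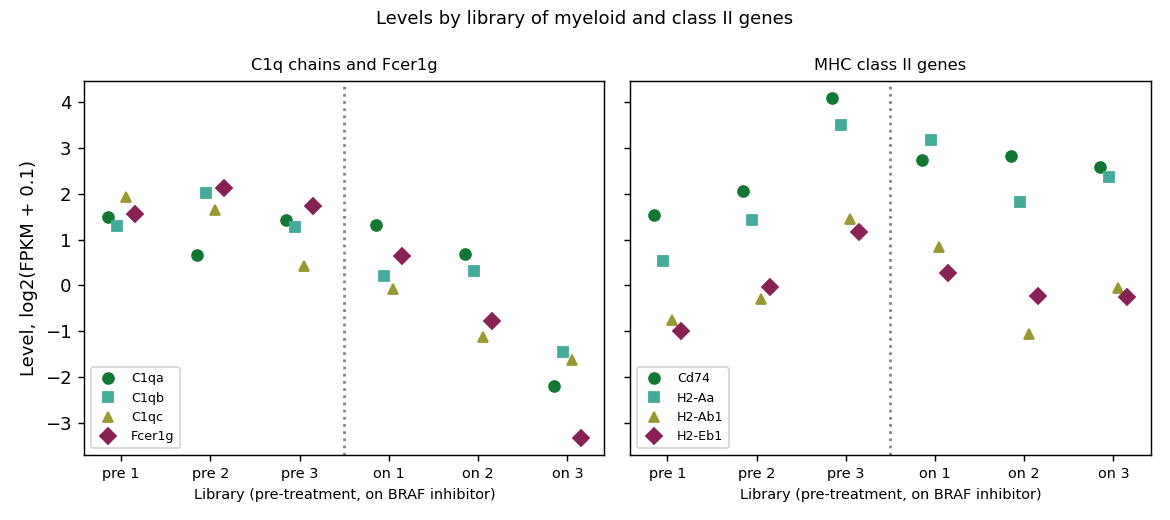
Levels of the C1q chains with Fcer1g and of the 4 class II genes in each library, as log2(FPKM + 0.1). The myeloid genes are lowest in on-BRAFi replicate 3, and the class II genes are highest in pre-treatment replicate 3.

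T and NK cell genes were close to the limit of the table. Of the 9, only Cd3g had a mean of at least 1 FPKM. CD3 delta, epsilon and gamma are chains of the T cell receptor complex and are made together in T cells. Cd3d was at 0.702, 0.578 and 0.431 FPKM before treatment and at 0.210, 0.293 and 0.194 FPKM on BRAFi, without overlap. Cd3e did not exceed 0.344 FPKM and was listed at 0 in 2 treated libraries. Cd3g, in contrast, was at 2.06, 2.91 and 2.81 FPKM and then at 0, 2.96 and 0.380 FPKM. Its treated libraries covered the whole range, from listed at 0 to the highest value of the 6 (limma, adjusted p = 0.209). Cd3g supplied between 0 and 2.96 FPKM of class sums of 1.76 to 6.35 FPKM. Without it, a choice made after the values were seen, the other 8 genes summed to 2.61 ± 0.810 FPKM before treatment and 2.30 ± 0.971 FPKM on BRAFi.

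Cd4, the co-receptor of helper T cells, was the only member with all treated values above all others. It was at 0.338, 0.499 and 0.116 FPKM before treatment and at 0.895, 0.625 and 0.877 FPKM on BRAFi. All these values are under 1 FPKM, and without a filter the gene did not pass (limma, adjusted p = 0.195). Cd8a, the co-receptor of cytotoxic T cells, ranged from listed at 0 to 1.03 FPKM, with both ends among the treated libraries. Lck, the kinase bound to these co-receptors, was between 0.0962 and 0.427 FPKM. The cytotoxic granule genes differed from each other. Gzmb was at 0.184 and 0.638 FPKM in pre-treatment replicates 2 and 3 and listed at 0 in the other 4 libraries. Nkg7 was at 0.931 FPKM in pre-treatment replicate 3 and at 0.713 and 0.852 FPKM in on-BRAFi replicates 2 and 3, and was listed at 0 in the others. Cd2, an adhesion receptor of T and NK cells, was above 0 in pre-treatment replicates 1 and 3 alone, at 0.349 and 0.393 FPKM.

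Of the 3 B cell and 3 neutrophil genes, only Cd79a reached 1 FPKM in any library. Cd79a and Cd79b encode the paired signalling chains of the B cell receptor. Cd79a was at 1.50, 0.284 and 2.47 FPKM before treatment and at 3.31, 1.75 and 1.38 FPKM on BRAFi, with overlap (limma, adjusted p = 0.469). Cd79b was listed at 0 in 5 libraries and was at 0.576 FPKM in on-BRAFi replicate 2, so both chains were above 0 in that library alone. Ms4a1, which encodes CD20, was listed at 0 throughout. S100a8 and S100a9, the calprotectin genes that dominate neutrophil RNA, were listed at 0 in all 6 libraries, and Csf3r, the receptor for G-CSF, did not exceed 0.458 FPKM.

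Leukocyte genes outside the 39 were counted from lists of the same classes. Over all tested genes 10.3% fell and 8.76% rose. Of 15 other pan-leukocyte genes, 4 were tested, 1 fell and none rose. The gene that fell was Arhgdib, which is abundant in leukocytes, from 224 ± 10.4 to 145 ± 10.2 FPKM (limma, adjusted p = 0.0274; 0.842 after rescaling each library to the same total and 0.451 with quantile normalization). Its level was far above that of any member, including Ptprc. Without any 1 of the 6 libraries it also missed the threshold (limma, adjusted p from 0.0556 to 0.108). Cd84, the next most abundant on that list, was at 21.5 FPKM in pre-treatment replicate 2 and between 1.78 and 4.99 FPKM elsewhere. In 12 of the 15 genes the mean was lower on BRAFi, against 46.8% of all genes above 0.

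Of 18 other macrophage genes, 17 were in the table and 8 were tested, with a median log2 fold change of -0.75. Among the 8, 1 fell and none rose, against 10.3% and 8.76% of all tested genes. Ctss, the endosomal protease cathepsin S of antigen-presenting cells, was at 9.92, 10.6 and 12 FPKM before treatment and at 3.65, 2.89 and 3.45 FPKM on BRAFi. The groups were widely apart, with a log2 fold change of -1.67 ± 0.20 SE (limma, adjusted p = 0.00299). Ctss passed without any 1 library, and missed the threshold after rescaling to the same total (limma, log2 fold change -1.14, adjusted p = 0.0538). Mertk, a receptor for apoptotic cells, was the most abundant of this list and was at 18.8 ± 3.98 and 20.5 ± 3.11 FPKM. In 14 of the 17 genes the mean was lower on BRAFi, against 46.8% of all genes above 0. In 5 all pre-treatment values lay above all on-BRAFi values, against 14.4% of all genes above 0.

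None of the 14 other class II and dendritic cell genes reached a mean of 1 FPKM, and none of the 8 other B cell genes did. Of 18 other T and NK cell genes 2 were tested, and neither passed. Ccl5, a chemokine of T and NK cells and other cells, was at 4.66, 2.97 and 13.2 FPKM before treatment and at 1.85, 6.04 and 2.75 FPKM on BRAFi, with its highest value in pre-treatment replicate 3. Cd247, the zeta chain of the T cell receptor complex, was at 0.885 ± 0.774 and 1.54 ± 0.257 FPKM. Of 12 other neutrophil genes, 11 were in the table and 3 were tested. Against 8.76% of all tested genes, 1 of the 3 rose. That gene, Il1r2, a decoy receptor for interleukin-1, was at 0.797, 0 and 0 FPKM before treatment and at 13.7, 13.4 and 4.18 FPKM on BRAFi (limma, adjusted p = 0.0114). Il1r2 passed the filter on the mean of all libraries only through the on-BRAFi group, which favours a rise among tested genes this low before treatment. Leaving out on-BRAFi replicate 1 gave adjusted p = 0.0587 and leaving out on-BRAFi replicate 2 gave 0.0515 (limma), so the call was lost in both. Among defining neutrophil genes, Retnlg, Ltf and Mmp8 were listed at 0 in every library. Cxcr2, the most abundant tested gene of this list apart from Il1r2, was at 3.62 ± 1.98 and 2.80 ± 0.860 FPKM. The summed FPKM of 6 mast cell markers ran from 0 to 0.759 before treatment and from 0.176 to 6.30 on BRAFi.

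Markers of the cells that the sort keeps moved with the groups. Of 7 fibroblast markers 6 rose and none fell, and their summed level was 1120 to 1630 FPKM before treatment and 9080 to 9790 FPKM on BRAFi. Of 7 endothelial markers 6 rose and none fell, with sums of 36.2 to 46.5 and 82.1 to 124 FPKM. Col3a1, a fibrillar collagen, rose 8.97-fold and among the endothelial genes Vwf, which encodes von Willebrand factor, rose 5.50-fold, whereas Eng, an endothelial TGF-beta co-receptor, was at 22.6 ± 7.85 and 23.8 ± 4.06 FPKM. The part of these changes in the lower myeloid values was not tested. Scaling bore on the myeloid values: after rescaling each library to the same total, which moved the median of all genes by 0.54 on the log2 scale, the log2 fold changes of C1qb, C1qc and Fcer1g were -1.36, -1.80 and -2.60 and that of Mrc1 was -0.14. The log2 fold changes of Lyz2, Lcp1, Coro1a, H2-Ab1 and H2-Eb1 turned from negative to positive under that scaling.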

How the data were processed

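The authors deposited 1 table of FPKM with 1 value per gene symbol and library, and all 6 columns matched a sample by name. Per the labels' protocols, RNA of the sorted cells was isolated by QIAGEN RNeasy micro columns and made into unstranded poly(A) TruSeq libraries; the labels call the reads single-end in one place and paired-end in another. Per the submitters' processing notes the tools were TopHat2, TopHat, Cuffnorm and Cuffdiff with mm9, with no versions or roles; the annotation is not given in the sources used here. No batch or date is given for single libraries.

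Genes with a mean of at least 1 FPKM over the 6 libraries (12075) were fitted with limma 3.58.1 in R 4.3.3 on log2(FPKM + 0.1), by group, using an intensity trend in eBayes. All tests are two-sided and adjusted by the Benjamini-Hochberg method over all genes tested, at a threshold of 0.05. The fit was tested on simulated data. An exact permutation test of 3 against 3 libraries has a smallest p of 0.1, so none was used. Class sums have no test. All 39 members are named; of other lists, the 2 most abundant tested genes, up to 3 past the threshold, and defining markers listed at 0. The members and lists were chosen with earlier results of these data known. Alternatives were pseudocounts of 1 and 0.01, no filter, a mean of at least 5 FPKM, rescaling to the same total, median of ratios, quantile normalization, array weights, no trend, a block on tumour number, and each library left out. Promoters came from RefSeq's GRCm38.p6 table and overlapping exons from GENCODE M21.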

Additional observations from a re-analysis of the deposited data

How the results depend on the processing

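No member passed as higher under any of the 16 alternatives. The number of members that fell was 0 of 20 in the reported fit, where 10.3% of all tested genes fell. It became 1 of 20 with a pseudocount of 1 (Fcer1g) and with array weights (C1qb). It was also 1 of 20 with a pseudocount of 0.01, with median of ratios scaling and with no trend (C1qc in each). In these fits between 1041 and 1449 of the 12046 to 12075 tested genes fell. With no filter on low values it was 2 of 36 (Cd48 and Clec12a), where 6.17% of all 18060 genes fell. With single libraries left out it ran from 0 to 1, the 1 being Fcer1g without on-BRAFi replicate 1. In that fit 732 of 12000 genes fell. The count of changed genes was 2307 and ranged from 1230 to 1698 with 1 library left out, and it was 1237 with the tumour number as a replicate block. With that block no member passed. The deviations of same-numbered tumours from their group means had correlations of -0.03, 0.01 and -0.09 for numbers 1, 2 and 3. Those of differently numbered tumours ran from -0.0873 to 0.1152. With means of only 3 libraries per group, these values cannot show whether the numbers pair the samples. Of 298 member values under alternatives 267 kept their direction and their side of the threshold. The sign turned in 25, over 8 members whose adjusted p in the reported limma fit was 0.635 or above, and in none of the other 12. Rescaling to the same total gave log2 fold changes of 0.44 for Coro1a, 0.21 for Lcp1, 0.35 for Lyz2, 0.24 for H2-Ab1 and 0.34 for H2-Eb1. Array weights gave 0.17 for Coro1a, 0.17 for Lyz2 and 0.05 for H2-Ab1. Csf1r was at -0.003 with median of ratios scaling and -0.082 with quantile normalization, and Coro1a at 0.006 with a pseudocount of 1. With 1 library left out the log2 fold change ran from -0.35 to 0.45 for Coro1a, from -0.54 to 0.032 for Lcp1, from -0.17 to 0.15 for Csf1r, from -0.82 to 0.20 for Lyz2, from -0.51 to 0.38 for Cd68, from -0.36 to 0.91 for Cd74 and from -0.69 to 0.26 for H2-Ab1. The causes were not tested. Most members lie near or below 1 FPKM and the depth is unknown, so smaller changes were not detectable.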

Other observations

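Some leukocyte genes outside the 39 members had all treated values above all pre-treatment values at low levels. Those named here were chosen after their values were seen. Over all genes above 0, 18.3% had this pattern and 14.4% the reverse, and 6.17% rose in the fit without a filter. The pattern was found in 1 of 12 class II and dendritic cell genes above 0, 1 of 4 B cell genes and 2 of 8 neutrophil genes. None of the other pan-leukocyte, macrophage or T and NK cell genes had it. H2-Oa, a chain of the class II chaperone H2-O of B cells and thymus, was at 0, 0.142 and 0 FPKM before treatment and at 1.07, 1.65 and 0.732 FPKM on BRAFi (limma without a filter on low values, adjusted p = 0.0179). Ngp, a granule protein of neutrophil precursors, was listed at 0 in all pre-treatment libraries and was at 0.304, 1.33 and 2.70 FPKM on BRAFi (limma without a filter, adjusted p = 0.0299). Cd22, an inhibitory lectin of B cells, averaged 0.390 ± 0.0279 FPKM before treatment against 0.881 ± 0.177 FPKM on BRAFi (limma without a filter, adjusted p = 0.165). In the opposite direction, Trem2, a lipid receptor of macrophages, was at 1.79, 1.84 and 0.902 FPKM before treatment and at 0.209, 0.391 and 0 FPKM on BRAFi (limma without a filter, adjusted p = 0.0623), and Itgax, the integrin CD11c, was listed at 0 in every on-BRAFi library and did not exceed 0.356 FPKM before treatment.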
